A study of Danio rerio with 28 samples.

Results

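Zebrafish larvae exposed to cadmium (Cd) at 12 ug/L were compared with larvae exposed to PCB126 at 0.4 nM, the middle of 3 doses of each chemical. The members are the 8 whole-larva RNA libraries that carry these treatment labels, 4 per group, of 28 libraries in all. All fish, called embryos in the titles, were wild type of the AB strain and were raised in E3 medium at 28.5 °C, and exposures ran between day 1 and day 5 after fertilization. The other groups, each of 4 libraries, were Cd 24 ug/L, PCB126 0.8 nM, Cd 2.4 ug/L, PCB126 0.08 nM and a control. The controls did not enter the fit. Their levels are given beside the results for orientation only, because their column names carry the Cd prefix and the labels do not say whether they were kept alongside the PCB126 larvae. Neither a vehicle, the number of larvae per library, the hour and order of sampling nor the origin of replicates in separate clutches or dishes is stated. The p-values therefore measure only the spread between these samples, which may be technical. The doses are in different units, so the chemical and the height of its dose cannot be told apart. The title presents the chemicals as endocrine disruptors.

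Cadmium is a toxic metal that binds thiol groups, competes with calcium and zinc for their transporters and, in many tissues, induces metallothioneins and heat shock proteins. PCB126 is a dioxin-like polychlorinated biphenyl that binds the aryl hydrocarbon receptor (AhR). The ligand-bound receptor pairs with Arnt, binds DNA at xenobiotic response elements and switches on cytochrome P450 family 1 genes, conjugating enzymes and its own repressor. In zebrafish larvae ahr2 mediates most of this response, and AhR agonists are known for heart and jaw malformations.

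A small share of genes passed the test between larvae of the 2 exposures. Of 24269 genes tested, 579 differed at an adjusted p below 0.05 (here termed called; edgeR quasi-likelihood test with Benjamini-Hochberg adjustment), which is 2.39% of the genes tested. In Cd 12 larvae 312 genes (1.29%) were higher and 267 (1.1%) were lower than in PCB126 0.4 larvae. Most differences were modest, with a median fold of 1.58 among the higher and 1.46 among the lower genes, and 99 and 43 genes were past 2-fold. All 4 libraries of Cd 12 lay above, or all 4 below, all 4 of PCB126 0.4 for 309 of the 312 and 265 of the 267 genes, while such a separation was seen in 9.41% of all genes tested. The called genes were chosen with these same 8 libraries, which by itself makes such a separation common among them. The median log2 fold change over all genes was 0.004. At an unadjusted p below 0.05 the same edgeR test gave 3448 of the 24269 genes. DESeq2 called 974 of 32795 genes at an adjusted p below 0.05. The share called therefore depends on the threshold and the method. Fold changes are given throughout as Cd 12 over PCB126 0.4 on the log2 scale with their standard error (SE), so a negative value means a lower level in Cd 12 larvae. In whole larvae, fewer cells of a type and less RNA per cell cannot be told apart.

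The 8 libraries held 13080458 to 20770004 counts. Ribosomal protein genes took 6.05% to 6.62% of the counts of Cd 12 libraries and 6.07% to 6.29% of PCB126 0.4 libraries, and neither this share, the total nor any of the other measures of composition passed an exact permutation test (two-sided p of 0.229 or more, smallest possible 0.0286 with 70 permutations, 0.643 or more after Benjamini-Hochberg adjustment over 5 measures). On the first principal component, 25.4% of the variance, the groups did not overlap but spread widely. Cd 12 libraries lay at -0.4, -38.6, -34.6 and -15.4, and PCB126 0.4 libraries at 20.5, 39.3, 16.6 and 12.6. Cd 12 replicate 1 was closer to PCB126 0.4 replicate 4 than to any other Cd 12 library. The number of genes called fell to 344 without Cd 12 replicate 2, 341 without Cd 12 replicate 4 and 379 without PCB126 0.4 replicate 2, and lay between 392 and 544 without any other single library. Of 149 called genes followed through the single omissions, 119 lost no call in those in which they were tested. Among these 119, hamp was tested in only 6 of the 8. The calls of jun, hsp70.1, nfkbiaa, nfkbiab and crp2, given below, were not followed in this way. Control replicate 4 and Cd 2.4 replicate 3 stood apart from all other libraries, with ribosomal protein genes at 12.6% and 13% of their counts. Neither is among the 8, and control levels are therefore given as the median of 4 libraries unless each is shown. That median was nearer to Cd 12 for 205 of the 312 genes higher in Cd 12 and for 221 of the 267 lower ones. It lay between the means of Cd 12 and PCB126 0.4 for 249 of the 312 and 161 of the 267.

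The AhR response was far weaker in Cd 12 larvae. In a list of AhR-responsive genes, 13 of 24 tested members were lower in Cd 12 larvae and 2 were higher. That is 62.5% of members, against 2.39% of all genes tested, and the median log2 fold change was -0.595. The whole list took 0.0849% to 0.0945% of counts in Cd 12 libraries and 0.406% to 0.533% in PCB126 0.4 libraries, against 0.0802% to 0.101% in the controls. The cytochrome P450 family 1 genes cyp1a, cyp1c1 and cyp1c2 were all among the lower genes.

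Transcripts of cyp1a (ENSDARG00000098315, chromosome 18), which encodes the monooxygenase classically used to read AhR activity, stood at 46.6, 44.2, 42.1 and 45.3 CPM (counts scaled to library size and TMM factor) in Cd 12 libraries, against 2470, 3560, 3420 and 3400 CPM in PCB126 0.4 libraries. The 4 control libraries held 44.7, 40.2, 41.5 and 52.6 CPM. Cd 12 larvae thus lay within the control range, while every PCB126 0.4 library was far above it, replicate 1 being the lowest of them. The log2 fold change was -6.17 ± 0.13 (adjusted p = 1.43e-09), or 72.1-fold less in Cd 12 larvae. The related genes cyp1c1 and cyp1c2 behaved alike. For cyp1c1 the Cd 12 libraries held 25.3, 24.4, 24.1 and 22.6 CPM and the PCB126 0.4 libraries 428, 555, 544 and 576 CPM, a log2 fold change of -4.45 ± 0.10 (adjusted p = 1.95e-09). For cyp1c2 they held 5.08, 4.04, 6.76 and 4.92 CPM, against 46.3, 66.5, 54.8 and 61.6 CPM, at -3.48 ± 0.16 (adjusted p = 1.06e-06). PCB126 0.4 replicate 1 was the lowest of its group for all 3 genes. Another family member, cyp1b1, did not reach the count filter in these larvae.

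The receptor and its feedback genes moved with the enzymes. The level of ahr2 was 111, 120, 114 and 115 CPM in Cd 12 libraries and 185, 183, 192 and 190 CPM in PCB126 0.4 libraries. These groups did not overlap, and the control median lay at the Cd 12 level (113 CPM). The log2 fold change of ahr2 was -0.71 ± 0.05 (adjusted p = 1.74e-05), and that of ahr1a, another AhR gene, -1.07 ± 0.23 (adjusted p = 0.0379). The call of ahr1a ended in 6 of the 8 single omissions. Of 12 tested genes for AhR, its partners and chaperones, these were the only members called (16.7%, against 2.39% of all genes tested). The gene for the ADP-ribosylating AhR repressor, tiparp, was at -0.61 ± 0.08 (adjusted p = 0.00341). The symbol ahrra matched no gene in the table and ahrrb was below the count filter. An unannotated locus on an alternate contig of chromosome 2, which the deposited annotation matches to an AhR repressor protein, held 7.54, 11.9, 7.75 and 9.63 CPM in Cd 12 libraries and 46.8, 57.2, 43.0 and 34.1 CPM in PCB126 0.4 libraries. It was singled out after its values were seen, and its log2 fold change was -2.28 ± 0.18 (adjusted p = 6.03e-05).

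Growth factor and transcription factor genes known as AhR-responsive in zebrafish followed. The fibroblast growth factor gene fgf7 was scarce in Cd 12 libraries, at 1.15, 0.999, 1.18 and 1.01 CPM, against 4.16, 5.33, 6.18 and 5.97 CPM in PCB126 0.4 libraries (-2.32 ± 0.19, adjusted p = 9.91e-05). The forkhead gene foxq1a stood at 9.77, 10.4, 8.93 and 9.84 CPM, against 32.1, 53, 48.5 and 51.0 CPM (-2.24 ± 0.15, adjusted p = 2.12e-05). Its relatives foxq1b and foxf2a were lower in Cd 12 larvae by smaller amounts (-1.25 ± 0.12 and -1.09 ± 0.11). In the opposite direction, sox9b, a transcription factor gene of cartilage and heart valve formation that AhR agonists are known to repress, held 38.9, 35.1, 41.5 and 42.3 CPM in Cd 12 libraries and 29.3, 22.7, 25.6 and 24.1 CPM in PCB126 0.4 libraries. The groups did not overlap (0.63 ± 0.09, adjusted p = 0.00402), and the control median was 45.0 CPM. The other member higher in Cd 12 larvae, slc16a9a, a monocarboxylate transporter family gene, was at 1.20 ± 0.27 (adjusted p = 0.0472) and lost its call in 7 of the 8 single omissions.

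**Figure D1:**
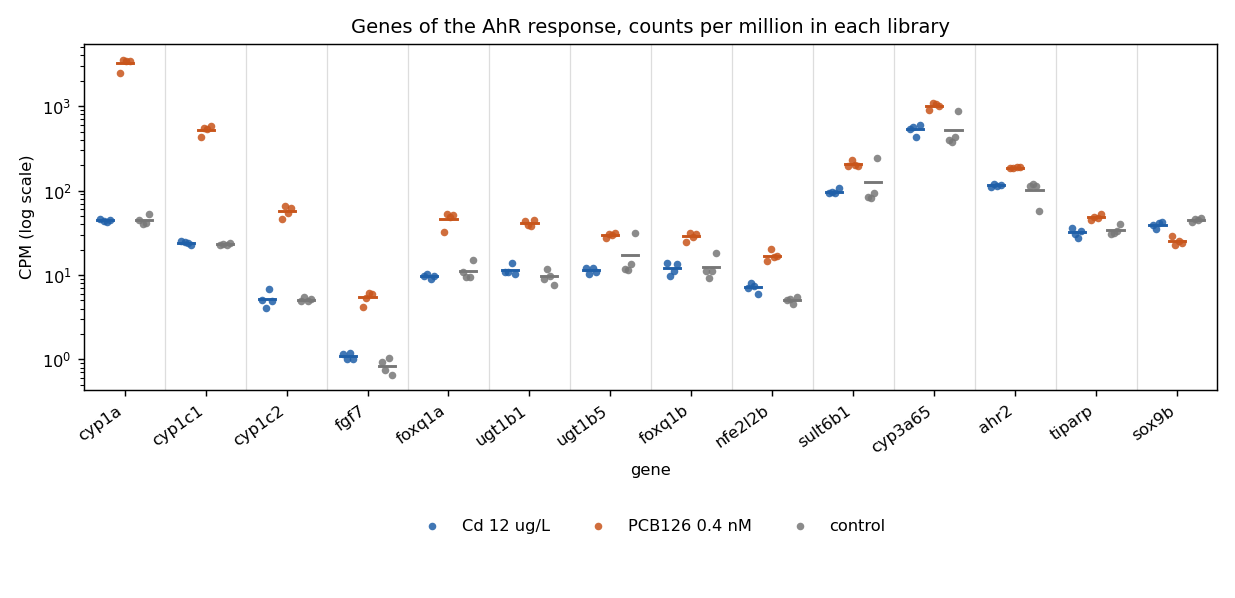
CPM (log axis) of 14 genes of the AhR response and of xenobiotic metabolism in each Cd 12 ug/L, PCB126 0.4 nM and control library; points are libraries and bars are group means (n = 4). The PCB126 0.4 nM points lie above all Cd 12 ug/L points in 13 genes and below them in sox9b, while the Cd 12 ug/L points lie near the controls, of which replicate 4 often stands apart.

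Of the enzymes and transporters that conjugate and export foreign compounds, some were also lower in Cd 12 larvae. In a list of UGT, SULT, CYP2, CYP3 and ABC genes, 10 of 81 tested members were lower and 1 was higher (13.6% of members, against 2.39% of all genes tested), with a median log2 fold change of -0.128. The glucuronosyltransferase gene ugt1b1 held 10.9, 10.9, 13.8 and 10.4 CPM in Cd 12 libraries and 43.2, 39.0, 38.5 and 44.9 CPM in PCB126 0.4 libraries (-1.85 ± 0.10, adjusted p = 4.57e-06). These groups were separated more than 2-fold, and the control median was near Cd 12 (9.41 CPM). Its neighbour in the family, ugt1b5, was at -1.40 ± 0.08, the sulfotransferase gene sult6b1 at -1.08 ± 0.07 and the intestinal and hepatic P450 gene cyp3a65 at -0.92 ± 0.10. Smaller differences were seen in abcc2, an apical export pump gene (-0.38 ± 0.06), and in ugt1ab (-0.58 ± 0.07). No sequences were compared here, and whether UGT genes shared reads was not tested. The member higher in Cd 12 larvae was the sulfotransferase gene sult5a1 (1.56 ± 0.31, adjusted p = 0.0253), a call lost in 4 single omissions. Of all 81 tested genes with a P450 domain in the deposited annotation, 13 (16%) were called, all lower in Cd 12 larvae. Among them, chosen after their values were seen, were cyp2aa11 (-1.02 ± 0.11) and the vitamin D 25-hydroxylase gene cyp2r1 (-1.04 ± 0.17). The cytochrome b5 gene cyb5a, whose product donates electrons to P450 enzymes, held 63.5, 55.1, 58.0 and 49.5 CPM in Cd 12 libraries and 113, 115, 119 and 126 CPM in PCB126 0.4 libraries (-1.07 ± 0.07, adjusted p = 2.87e-05).

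In the other direction, the 3 largest log2 fold changes of the 24269 genes were those of genes in a tandem ferritin array on chromosome 3. The smallest of these, of an entry named zgc:109934, rested on only 7 counts in the PCB126 0.4 libraries and 206 in the Cd 12 libraries. Ferritin is the protein shell in which cells store iron. The array spans bases 32099507 to 32140446 (GRCz11) and holds 8 genes, all of them higher in Cd 12 larvae, and they were singled out after their values were seen. Transcripts of zgc:194125 (ENSDARG00000113977) reached 172, 187, 177 and 261 CPM in Cd 12 libraries, against 6.80, 4.94, 5.68 and 3.78 CPM in PCB126 0.4 libraries. The 4 control libraries, at 20.5, 18.7, 22.9 and 63.8 CPM, lay between the groups. The log2 fold change was 5.24 ± 0.19 (adjusted p = 1.85e-07), or 37.7-fold more in Cd 12 larvae. Over the doses of Cd (2.4, 12 and 24 ug/L) the mean level was 131, 199 and 208 CPM, and over those of PCB126 (0.08, 0.4 and 0.8 nM) it was 9.49, 5.30 and 5.20 CPM. All 3 Cd means thus lay above the control median of 21.7 CPM and the control mean of 31.4 CPM, and all 3 PCB126 means below both. The Cd 2.4 libraries held 67.0, 68.1, 221 and 169 CPM, and the highest of them is the divergent replicate 3.

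Neighbouring copies were also higher in Cd 12 than in PCB126 0.4 larvae, but the controls did not lie between the groups in all of them. For the first zgc:92066 entry the control median was 144 CPM, beside medians of 213 CPM in Cd 12 and 152 CPM in PCB126 0.4 libraries. For zgc:198419 the Cd 12 libraries held 89.5, 102, 101 and 131 CPM and the PCB126 0.4 libraries 7.91, 6.33, 7.43 and 10.5 CPM (3.71 ± 0.16, adjusted p = 6.62e-07). For BX511021.1 they held 20.2, 24.1, 20.9 and 30.3 CPM, against 1.53, 1.70, 1.15 and 1.06 CPM (4.16 ± 0.19, adjusted p = 1.08e-06). In both genes the lowest Cd 12 library was above the highest PCB126 0.4 library several times over. The log2 fold changes were 2.60 ± 0.29 for zgc:173593, 2.79 ± 0.16 and 4.56 ± 0.66 for a pair of genes that both carry the symbol zgc:109934, and 0.47 ± 0.07 and 4.57 ± 0.18 for a pair that both carry the symbol zgc:92066. Most of the genes carry a ferritin domain in the deposited annotation, but the zgc:109934 and zgc:92066 entries at 4.56 and 4.57 do not. In part the genes share a symbol. Their sequences were not compared, and whether reads were split among them was not tested, so the size for a single gene is uncertain. The ubiquitous heavy-chain gene fth1a on chromosome 7 held 970, 894, 884 and 965 CPM in Cd 12 libraries and 994, 963, 948 and 941 CPM in PCB126 0.4 libraries, with overlapping groups (-0.05 ± 0.05, adjusted p = 0.686). In all, 6 of the 10 tested genes with a ferritin domain in the deposited annotation were called, all of them higher. That is 60% of the 10, against 2.39% of all genes tested.

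**Figure D2:**
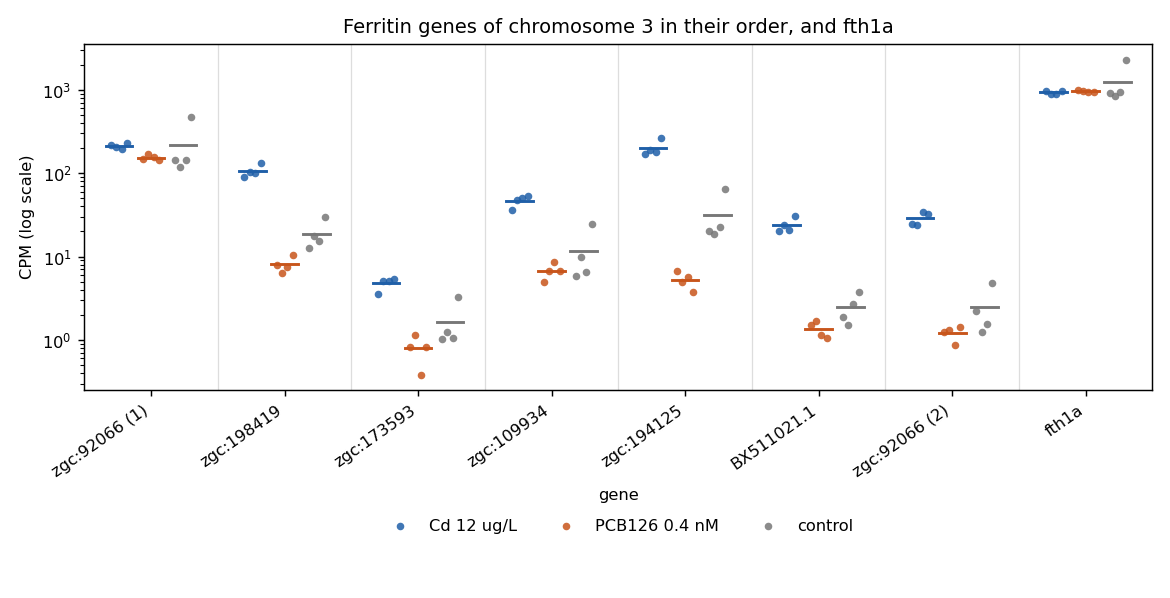
CPM (log axis) of 7 genes of the ferritin array of chromosome 3, in their order along the chromosome, and of fth1a from chromosome 7. Each Cd 12 ug/L, PCB126 0.4 nM and control library is shown. Points are libraries and bars are group means (n = 4). Cd 12 ug/L lies above and PCB126 0.4 nM below the control mean in 6 of the 7 array genes, and these 2 groups overlap in fth1a. The control mean includes the divergent replicate 4. For zgc:92066 (1) it was 217 CPM, against a control median of 144 CPM. The numbers 1 and 2 mark the pair of genes named zgc:92066.

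Other genes of iron handling differed at 3 members. In a list of 17 tested genes that did not hold the array, 2 were lower in Cd 12 larvae and 1 was higher. These calls made up 17.6% of members, against 2.39% of all genes tested, and the median was -0.057. The lower ones encode plasma proteins of iron transport, the ferroxidase ceruloplasmin (cp) and transferrin (tfa). Transferrin transcripts were abundant, with 1880, 1870, 1760 and 1830 CPM in Cd 12 libraries and 2840, 2430, 2560 and 2610 CPM in PCB126 0.4 libraries (-0.51 ± 0.05, adjusted p = 0.000586). The ceruloplasmin gene cp held 129, 140, 135 and 136 CPM, against 193, 204, 212 and 235 CPM (-0.64 ± 0.06, adjusted p = 0.000349). The higher one was hamp, which encodes the iron-regulating hormone hepcidin, with 0.693, 1.38, 0.853 and 0.963 CPM in Cd 12 libraries and 0.208, 0.154, 0.219 and 0.118 CPM in PCB126 0.4 libraries (2.44 ± 0.39, adjusted p = 0.00791). The 4 libraries of each group held 70 counts in Cd 12 and 11 in PCB126 0.4, and the control median was above both groups. Without Cd 12 replicate 2 or 4 the gene fell below the count filter.

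In a list of 26 tested metallothionein and zinc transport genes, 1 was higher and 1 lower in Cd 12 larvae (7.69% of members, against 2.39% of all genes tested, median 0.04). The metallothionein gene mt2 held 7.23, 4.90, 7.55 and 6.95 CPM in Cd 12 libraries and 1.94, 2.93, 3.33 and 2.42 CPM in PCB126 0.4 libraries (1.31 ± 0.20, adjusted p = 0.00689). The groups did not overlap, but the control libraries, at 2.58, 4.24, 7.43 and 9.11 CPM, overlapped with both. The zinc and cadmium importer gene slc39a8 was lower (-1.05 ± 0.23, adjusted p = 0.038), a call lost in 7 single omissions. The metal sensor gene mtf1 (0.29 ± 0.30, adjusted p = 0.726) and the zinc exporter gene slc30a1a (0.08 ± 0.06, adjusted p = 0.602) did not pass the test.

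Antioxidant genes were called in both directions, but 35 of 49 tested members of their list had a negative log2 fold change. At an unadjusted p below 0.05, 18 were lower and 6 higher in Cd 12 larvae, and DESeq2 called 8 lower and 2 higher. Over all genes these criteria gave 3448 of 24269 and 974 of 32795. Of 49 tested genes of the Nrf2 and glutathione list, 4 were lower and 2 higher in Cd 12 larvae. These calls made up 12.2% of members, against 2.39% of all genes tested, and the median was -0.096. The lower ones were led by nfe2l2b, for an Nrf2 family regulator, at -1.24 ± 0.13 (adjusted p = 0.000586), followed by the glutathione transferase gene gstp2 (-0.56 ± 0.11, lost in 6 single omissions). The higher ones were the autophagy receptor gene sqstm1 (0.65 ± 0.11, adjusted p = 0.0129) and the glutathione peroxidase gene gpx1b (0.43 ± 0.08, adjusted p = 0.0144), and both calls ended without Cd 12 replicate 4 (adjusted p = 0.0513 and 0.0576). The count of lower members was 7 without Cd 12 replicate 3 and 2 without Cd 12 replicate 2 or 4 or PCB126 0.4 replicate 1, 2 or 4. The heme oxygenase gene hmox1a (0.08 ± 0.09, adjusted p = 0.757), the glutathione synthesis gene gclc (-0.12 ± 0.07, adjusted p = 0.458) and nqo1 (0.08 ± 0.05, adjusted p = 0.546) did not pass.

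Of 43 tested chaperone genes, 5 were higher in Cd 12 larvae and 1 was lower (14% of members, against 2.39% of all genes tested, median 0.018). Of all 22 tested genes with an Hsp70 domain in the deposited annotation, 4 were called (18.2%), each higher. The median over the 22 was 0.025. The inducible gene hsp70.3 held 13.7, 18.1, 13.8 and 19.2 CPM in Cd 12 libraries and 7.43, 5.40, 5.19 and 8.45 CPM in PCB126 0.4 libraries (1.29 ± 0.18, adjusted p = 0.00356). The groups did not overlap, and the control median of 10.8 CPM lay between them. The like-named genes hsp70.2 and hsp70.1 were at 0.83 ± 0.13 and 0.96 ± 0.18, hsp70l at 0.99 ± 0.22 (adjusted p = 0.048, lost in 6 single omissions) and the cytosolic chaperone gene hsp90aa1.2 at 0.54 ± 0.08. Whether these genes shared reads was not tested, and the call of hsp70.1 was not followed through the single omissions. The small heat shock gene hspb6 was lower (-0.52 ± 0.06). The count of higher members was 3 without Cd 12 replicate 2 or 4 or PCB126 0.4 replicate 1 or 2.

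Genes of calcium regulation differed at 3 members. Of 31 tested genes of calcium, phosphate and vitamin D regulation, 3 were lower in Cd 12 larvae and 0 higher (4 higher at an unadjusted p below 0.05, 0 by DESeq2). The called genes made up 9.68% of members, against 2.39% of all genes tested, and the list's median was 0.009. The gene for the calcium-lowering hormone stanniocalcin, stc1l, held 2.46, 0.428, 0.788 and 0.304 CPM in Cd 12 libraries, against 4.30, 4.48, 5.14 and 4.37 CPM in PCB126 0.4 libraries. All Cd 12 libraries were below all PCB126 0.4 libraries and below the control median of 4.46 CPM, but they spread widely among themselves (-2.30 ± 0.49, adjusted p = 0.0352), and the call ended in 7 single omissions. The vitamin D activating hydroxylase gene cyp27b1 held 13.5, 8.76, 10.1 and 11.1 CPM, against 20.3, 35.9, 29.1 and 28.8 CPM (-1.40 ± 0.17, adjusted p = 0.00169). The parvalbumin gene pvalb8, for a calcium-binding protein, held 106, 70.3, 71.6 and 81.8 CPM, against 137, 162, 155 and 140 CPM (-0.85 ± 0.12, adjusted p = 0.00378). Here the control median (140 CPM) was at the PCB126 0.4 level, whereas for cyp27b1 (14.8 CPM) it was nearer to Cd 12. The epithelial calcium channel gene trpv6 was at 0.20 ± 0.08 (adjusted p = 0.263).

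The cortisol-inactivating enzyme gene hsd11b2, also a gene of ionocytes, was among the most evenly separated genes. It held 40.4, 41.0, 37.9 and 39.5 CPM in Cd 12 libraries and 18.5, 17.8, 20.0 and 21.2 CPM in PCB126 0.4 libraries (1.03 ± 0.07, adjusted p = 2.27e-05). The control median of 31.3 CPM lay between them. Of 29 tested genes of the cortisol and stress axis, 4 were higher in Cd 12 larvae and 0 lower (2 at an unadjusted p below 0.05, 1 by DESeq2), with a median of 0.115 and 13.8% of members called. Besides hsd11b2 these were the glucocorticoid-responsive genes fkbp5 (0.48 ± 0.10), igfbp1a (0.62 ± 0.11) and dusp1 (0.62 ± 0.07). The call of fkbp5 ended in 7 single omissions. The pituitary hormone precursor gene pomca (0.16 ± 0.22) and the glucocorticoid receptor gene nr3c1 (0.02 ± 0.09) did not pass. Among 24 tested ionocyte genes 8.33% were called, against 2.39% of all genes tested. Besides hsd11b2, the called member was the ionocyte specification gene foxi3b, lower at -1.66 ± 0.35 (adjusted p = 0.035, lost in 7 single omissions).

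Some light-induced genes were lower in Cd 12 than in PCB126 0.4 larvae, and for per2 both groups lay above the controls. In zebrafish, light itself switches on per2, a repressor of the circadian clock, and photolyases that repair DNA damaged by ultraviolet light. Of 23 tested genes of this kind, 8 were lower in Cd 12 larvae and 1 was higher (39.1% of members, against 2.39% of all genes tested, median -0.178). Transcripts of per2 stood at 121, 149, 154 and 151 CPM in Cd 12 libraries and at 276, 266, 271 and 271 CPM in PCB126 0.4 libraries, against 29.0, 28.5, 27.3 and 25.0 CPM in the controls. No 2 of these 3 groups overlapped, and Cd 12 replicate 1 was the lowest of its group. The log2 fold change was -0.91 ± 0.07 (adjusted p = 6.03e-05). The mean level followed the dose of each chemical, at 85.2, 144 and 195 CPM over Cd 2.4, 12 and 24 ug/L and at 223, 271 and 305 CPM over PCB126 0.08, 0.4 and 0.8 nM. The Cd 2.4 mean includes the divergent replicate 3, and the Cd 2.4 median was 81.2 CPM.

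The photolyase gene cry5 held 10.7, 11.4, 11.8 and 9.94 CPM in Cd 12 libraries and 22.4, 23.2, 20.7 and 23.4 CPM in PCB126 0.4 libraries (-1.04 ± 0.09, adjusted p = 9.07e-05), with a control median of 4.2 CPM. Smaller differences of the same sign were found in cry-dash (-0.58 ± 0.05), lonrf1l (-0.61 ± 0.06) and the nucleotide excision repair gene xpc (-0.65 ± 0.07). Of 38 core clock genes, 3 were lower and 1 higher (10.5% of members, against 2.39% of all genes tested, median 0.017). They included the repressors cry1bb (-0.56 ± 0.06) and cry1aa (-0.35 ± 0.05) and, in the other direction, the nuclear receptor gene nr1d2a (0.31 ± 0.06, lost in 4 single omissions). Light and the hour of sampling are not given in the labels, and their part in these differences was not tested.

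Immediate early genes are those that cells switch on within minutes of a stimulus. Of 43 tested members, 15 were higher in Cd 12 larvae and 1 was lower (37.2% of members, against 2.39% of all genes tested), 39 had a positive log2 fold change, and the median was 0.405. Among them were the AP-1 genes fosab (0.94 ± 0.15) and jun (0.40 ± 0.06), the nuclear receptor gene nr4a1 (0.66 ± 0.09) and the activity-dependent gene npas4a (0.79 ± 0.11). The orphan nuclear receptor gene nr4a3 held 44.9, 61.9, 45.7 and 48.4 CPM in Cd 12 libraries and 14.9, 21.5, 26 and 14.4 CPM in PCB126 0.4 libraries (1.39 ± 0.18, adjusted p = 0.00244). The 4 controls, at 20.0, 21.7, 18.0 and 23.4 CPM, lay with PCB126 0.4.

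In other members the controls lay with Cd 12. The antiproliferative gene btg2 held 83.7, 71.1, 81.4 and 75.9 CPM in Cd 12 libraries and 44.1, 36.7, 40.9 and 38.4 CPM in PCB126 0.4 libraries, against a control median of 73.3 CPM (0.96 ± 0.07, adjusted p = 5.79e-05). The G protein regulator gene rgs2 held 5.39, 6.33, 4.33 and 4.41 CPM, against 1.25, 0.617, 1.59 and 1.36 CPM (2.06 ± 0.26, adjusted p = 0.00182), with a control median of 5.39 CPM. The inflammatory transcription factor gene cebpd was at 0.94 ± 0.08 and the phosphatase gene dusp1 at 0.62 ± 0.07. The only member lower in Cd 12 larvae was the flow-responsive gene klf2b, with 32.5, 33.2, 31.6 and 36.2 CPM, against 56.7, 68.0, 65.3 and 62.4 CPM (-0.92 ± 0.07, adjusted p = 5.79e-05) and 28 CPM as the control median.

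Several immune and mucosal genes were higher in Cd 12 larvae and were at their lowest in PCB126 0.4 larvae. In a list of inflammation genes, 7 of 45 tested members were higher and 1 was lower in Cd 12 larvae (17.8% of members, against 2.39% of all genes tested, median 0.173). The itaconate-producing enzyme gene irg1l, active in macrophages and infected epidermis, held 42.4, 35.7, 45.4 and 73.1 CPM in Cd 12 libraries and 16.1, 10, 15 and 11.2 CPM in PCB126 0.4 libraries (1.91 ± 0.23, adjusted p = 0.00123). The controls, at 47.1, 71.3, 22.2 and 54.4 CPM, overlapped with the Cd 12 range. The pore-forming perforin-like gene mpeg1.2 held 39.8, 42.0, 24.6 and 56.9 CPM, against 15.5, 11.3, 12.6 and 11.3 CPM (1.69 ± 0.22, adjusted p = 0.00223). Of 39 tested myeloid and lymphoid markers, mpeg1.2 was the only member called (2.56% of members, near the 2.39% of all genes tested, median 0.068), and the list took 0.0769% to 0.0845% of counts in Cd 12 libraries and 0.0749% to 0.0811% in PCB126 0.4 libraries.

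The other called genes of this kind include regulators of interferon and cytokine signalling. The interferon regulatory factor gene irf1b held 12.5, 13, 10.5 and 14.7 CPM in Cd 12 libraries and 4.79, 4.86, 5.25 and 6.27 CPM in PCB126 0.4 libraries (1.26 ± 0.14, adjusted p = 0.000776). Its groups were more than 4 CPM apart, and the control median was 11 CPM. The signal transducer gene stat1b was at 1.97 ± 0.25 (adjusted p = 0.00175) and the cytokine signalling inhibitor gene socs3a at 1.25 ± 0.17 (adjusted p = 0.00341). Smaller differences lay in the NF-kB inhibitor genes nfkbiaa (0.47 ± 0.08) and nfkbiab (0.32 ± 0.06), and the acute phase gene crp2 was lower (-0.55 ± 0.09).

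Some genes of surface epithelia were also higher. The pleckstrin homology gene plekhs1 held 12.0, 12.9, 9.85 and 20.6 CPM in Cd 12 libraries and 3.05, 3.24, 2.95 and 3.55 CPM in PCB126 0.4 libraries (2.12 ± 0.22, adjusted p = 0.000586). The mucin gene muc13a was at 1.03 ± 0.14, the keratin genes krt96 and krt94 at 1.38 ± 0.23 and 0.68 ± 0.08, and zgc:111983, of the epidermis list, at 1.34 ± 0.14. In that list 5 of 57 tested members were higher and 2 lower (12.3% of members, against 2.39% of all genes tested, median 0.088), the keratin gene cyt1l (-0.67 ± 0.07) among the lower, and the count of higher members was 3 without Cd 12 replicate 2 or 4 or PCB126 0.4 replicate 1 or 4. Other genes named by the rule as much higher in Cd 12 than in PCB126 0.4 larvae were the adhesion receptor gene adgrf8 (1.36 ± 0.19) and bicdl2, a dynein adaptor gene (1.30 ± 0.16).

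Multigene families contributed to the higher genes too, and they were looked at after their values were seen. Of 31 tested genes with a zona pellucida domain, a domain of extracellular matrices and mucus-like coats, 6 were higher in Cd 12 larvae and 2 lower. These calls made up 25.8% of the 31, against 2.39% of all genes tested. Without counting other genes of the stretch, 3 of the higher genes were picked out as neighbours on chromosome 12, between bases 38878830 and 39031459. Of these, si:dkey-239b22.1 held 72.3, 80.8, 68.1 and 91.3 CPM in Cd 12 libraries and 27.2, 19.3, 20.2 and 22.1 CPM in PCB126 0.4 libraries (1.82 ± 0.12, adjusted p = 2.12e-05), with a control median of 75.4 CPM. Its neighbour si:ch211-39f2.3 held 16.3, 20.0, 17.1 and 20.7 CPM, against 6.52, 6.48, 6.83 and 5.56 CPM (1.55 ± 0.12, adjusted p = 5e-05), and si:ch73-181m17.1 was at 2.98 ± 0.43. A further pair of genes with the shared symbol zgc:153932 was at 1.82 ± 0.15 and 1.64 ± 0.18. Of 156 tested genes with a NACHT domain, found in innate immune sensors, 8 (5.13%) were called, all of them higher, against 1.29% of all genes tested that were higher. Whether reads were split among members of a family was not tested. Outside any family, zgc:194686 on chromosome 7 stood at 7.85, 7.85, 4.92 and 10.3 CPM in Cd 12 libraries and at 0.555, 0.617, 0.109 and 0.118 CPM in PCB126 0.4 libraries (4.54 ± 0.42, adjusted p = 0.000257).

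The middle dose of PCB126 was the low point of its own series for many of these genes. For irg1l the mean level over PCB126 0.08, 0.4 and 0.8 nM was 44.6, 13.1 and 48.5 CPM, for si:dkey-239b22.1 it was 93.4, 22.2 and 68.7 CPM, and for mpeg1.2 it was 47.9, 12.7 and 29.3 CPM. Over Cd 2.4, 12 and 24 ug/L the same genes were at 40.8, 49.1 and 78.5 CPM, at 65.5, 78.1 and 86.2 CPM, and at 36.1, 40.8 and 43.3 CPM. The Cd 2.4 means include the divergent replicate 3, and the Cd 2.4 medians were 32.2, 60.7 and 36.4 CPM. Of the 312 genes higher in Cd 12, 218 (69.9%) had a lower mean at PCB126 0.4 nM than at both other PCB126 doses, against 27.7% of all genes tested. Of the 267 genes lower in Cd 12, 79 (29.6%) had a higher mean at PCB126 0.4 nM than at both other doses, against 28.3% of all genes, and 179 (67.0%) had a mean between them. The genes were chosen with these PCB126 0.4 libraries, which by itself raises both shares, so the shares are a description only.

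**Figure D3:**
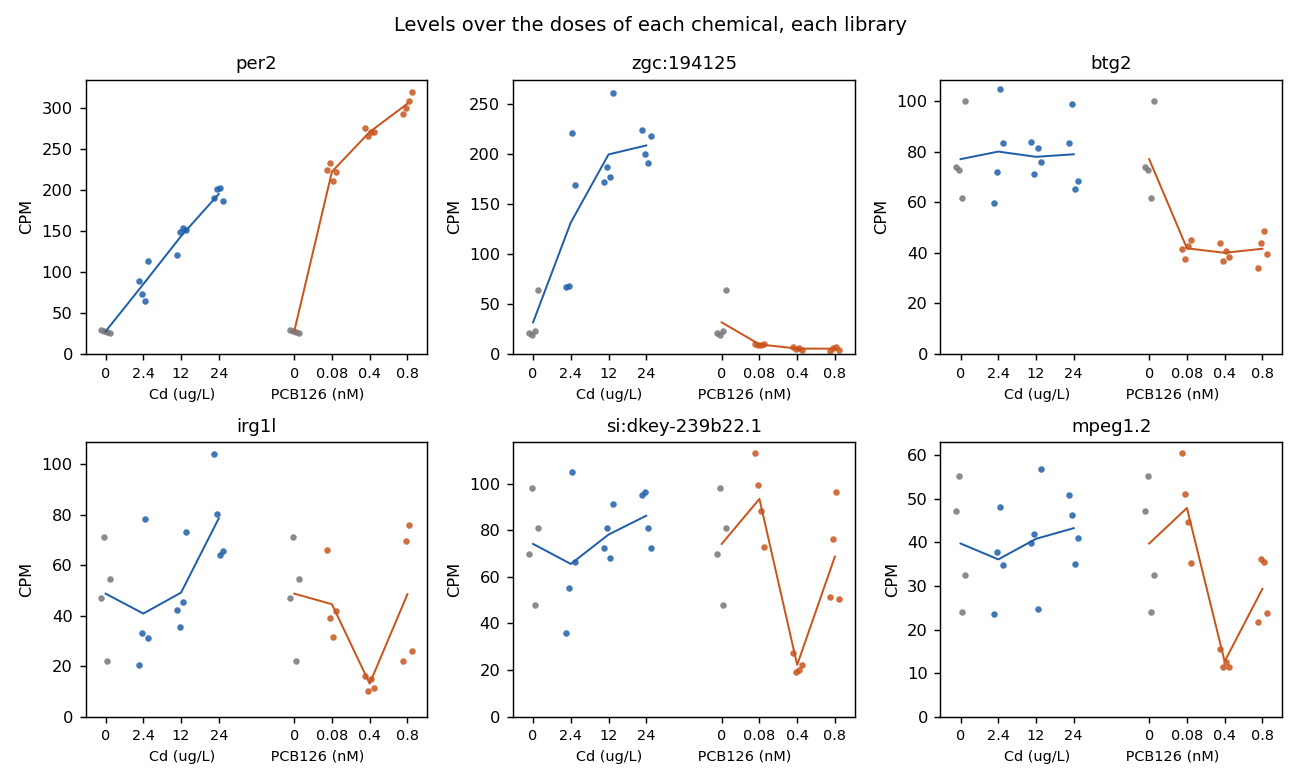
CPM (linear axes from 0) of 6 genes in each library over the doses of Cd (ug/L) and PCB126 (nM), with doses evenly spaced and the same 4 control libraries shown in grey at dose 0 of both; points are libraries and lines join group means (n = 4). The clock gene per2 climbs with both chemicals, zgc:194125 climbs with Cd and lies low with PCB126, btg2 lies near 40 CPM at every PCB126 dose, and irg1l, si:dkey-239b22.1 and mpeg1.2 dip at PCB126 0.4 nM.

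Some plasma protein genes of the liver were lower in Cd 12 larvae by small amounts. Of 72 tested members of the liver list, 22 were lower and 1, hamp, was higher, 57 had a negative log2 fold change, and the median was -0.211, with 31.9% of members called against 2.39% of all genes tested. The list took 1.95% to 2.07% of counts in Cd 12 libraries and 2.24% to 2.43% in PCB126 0.4 libraries, against 1.96% to 2.62% in the controls. Besides transferrin and ceruloplasmin, the lower genes encode complement factors (c3a.1 at -0.41 ± 0.06, c3a.2 at -1.05 ± 0.15, c8a at -0.47 ± 0.06), the adhesion protein vitronectin (vtnb at -0.65 ± 0.06) and the lipoprotein apolipoprotein A-II (apoa2 at -0.42 ± 0.05). The liver fatty acid-binding gene fabp10a, widely used to mark hepatocytes, was at -0.01 ± 0.08 (adjusted p = 0.983). The number of lower members was 12 without Cd 12 replicate 2, 13 without Cd 12 replicate 4 and 14 without PCB126 0.4 replicate 1. It was 9 with the replicate number as a block and 3 with all 28 libraries in the fit. With 26 libraries, leaving out control replicate 4 and Cd 2.4 replicate 3, it was 24. Over all genes the block called 282 of 24269, the fit of 28 libraries 186 of 25393 and that of 26 libraries 993 of 25610.

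Genes of glucose and lipid metabolism differed at single steps. The liver glycogen phosphorylase gene pygl held 119, 105, 121 and 121 CPM in Cd 12 libraries and 224, 223, 217 and 207 CPM in PCB126 0.4 libraries (-0.90 ± 0.06, adjusted p = 1.74e-05). The groups lay far apart and the control median (130 CPM) was nearer to Cd 12. In the other direction pfkfb3, whose product raises glycolysis, was at 0.65 ± 0.07 (adjusted p = 0.000584) and pfkfb1 at 0.53 ± 0.10 (lost in 4 single omissions). Of 67 tested glucose genes 5 were higher and 1 lower (8.96% of members, against 2.39% of all genes tested, median -0.014). The count of higher members was 2 or 3 without any of Cd 12 replicates 1, 2 and 4 and PCB126 0.4 replicates 1 and 3. The gluconeogenesis gene pck1 (0.06 ± 0.07) and the glucokinase gene gck (0.43 ± 0.35) did not pass. Of 52 tested lipid genes, of which 9.62% were called, the fatty acid elongase gene elovl7b (1.01 ± 0.14) and the desaturase gene fads2 (0.61 ± 0.12) were higher, while acaa1 (-0.33 ± 0.06) and acads (-0.31 ± 0.06), of fatty acid oxidation, were among 3 lower ones. The calls of fads2 and acads ended in 5 and 4 single omissions. The stress gene ddit4, an inhibitor of mTOR, was at 1.08 ± 0.11, and the oxygen sensor gene egln1a at -0.92 ± 0.17 (lost in 3 single omissions).

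Some muscle and heart genes were higher in Cd 12 larvae, most by small amounts. Of 75 tested skeletal muscle genes, 9 were higher and 0 lower (2 at an unadjusted p below 0.05, 1 by DESeq2), 67 had a positive log2 fold change, and the median was 0.137, with 12.0% of members called against 2.39% of all genes tested. The actin gene acta1b held 2100, 2170, 2090 and 2110 CPM in Cd 12 libraries and 1600, 1340, 1530 and 1630 CPM in PCB126 0.4 libraries (0.47 ± 0.06, adjusted p = 0.00203). These groups did not overlap, although the list as a whole took 10.1% to 11% of counts in Cd 12 libraries and 9.67% to 10.1% in PCB126 0.4 libraries. The sarcomere gene tcap stood out by size, with 26.7, 29.0, 39.1 and 26 CPM, against 12.0, 10.7, 12.4 and 9.99 CPM (1.42 ± 0.14, adjusted p = 0.000343). Of 35 tested heart genes, 6 were higher and 0 lower (0 at an unadjusted p below 0.05, 0 by DESeq2), with a median of 0.204 and 17.1% of members called. They included the myosin heavy chain gene myh7, with 130, 133, 114 and 131 CPM in Cd 12 libraries and 90.8, 78.3, 91.7 and 82.8 CPM in PCB126 0.4 libraries (0.56 ± 0.07, adjusted p = 0.00162), and the calcium pump gene atp2a2a (0.45 ± 0.06). The muscle count was 14 without Cd 12 replicate 3 and 5 without Cd 12 replicate 4 or PCB126 0.4 replicate 3 or 4, and the heart count was 3 without Cd 12 replicate 1 or 4 or PCB126 0.4 replicate 2 or 3. With the replicate number as a block, 3 muscle and 4 heart genes were higher. These counts were 1 and 3 with all 28 libraries in the fit, and 16 and 9 with 26 libraries. Over all genes the block called 282 of 24269, the fit of 28 libraries 186 of 25393 and that of 26 libraries 993 of 25610.

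Other tissues showed scattered differences. Among 47 tested cartilage and bone genes, 2 were higher and 3 lower (10.6% of members, median 0.01), with the aggrecan gene acana at 0.46 ± 0.07, the cartilage matrix gene matn4 at -0.36 ± 0.05 and the jaw patterning gene barx1 at -0.61 ± 0.10. Of 60 photoreceptor genes 3.33% were called, a share near the 2.39% of all genes tested. The cone transcription factor gene six7 held 62.6, 78.1, 73.0 and 77.7 CPM in Cd 12 libraries and 41.5, 46.6, 40.1 and 43.7 CPM in PCB126 0.4 libraries (0.76 ± 0.08, adjusted p = 0.000574). The guanylate cyclase gene gucy2d was lower (-0.62 ± 0.11). Few members were called in the endothelium (6.45%, vwf at -0.76 ± 0.10 and mrc1a at 0.54 ± 0.10, lost in 2 single omissions), kidney (3.33%, slc22a6l at -0.49 ± 0.08), retinoid (3.03%, bco1l at -0.93 ± 0.07) and exocrine pancreas (4.55%, ela2 at 0.53 ± 0.11, lost in 4 single omissions) lists. Yet 28 of 33 retinoid genes had a negative log2 fold change (median -0.218), and 21 of 22 pancreas genes a positive one (median 0.264). At an unadjusted p below 0.05, 14 retinoid genes were lower and 0 higher, and 8 pancreas genes were higher and 0 lower. Over all genes tested this criterion gave 3448 of 24269 in either direction. Between Cd 24 and PCB126 0.8 larvae the median was -0.113 for the retinoid and 0.024 for the pancreas list. In the erythroid list 3 of 31 were lower (9.68%), among them nt5c2l1 (-1.01 ± 0.11), and the count was 1 without Cd 12 replicate 2 or 4 or PCB126 0.4 replicate 2, 3 or 4. No member was called by edgeR among 24 cholesterol synthesis, 51 lens, 73 neuron, 33 glia, 77 proliferation, 27 pigment cell, 13 mitochondrially encoded and 78 ribosomal protein genes. At an unadjusted p below 0.05 they held 1, 2, 8, 6, 13, 10, 3 and 7 genes in that order, and DESeq2 called 0, 1, 4, 0, 2, 0, 0 and 2. These counts are to be read against 3448 of 24269 and 974 of 32795 over all genes.

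**Figure D4:**
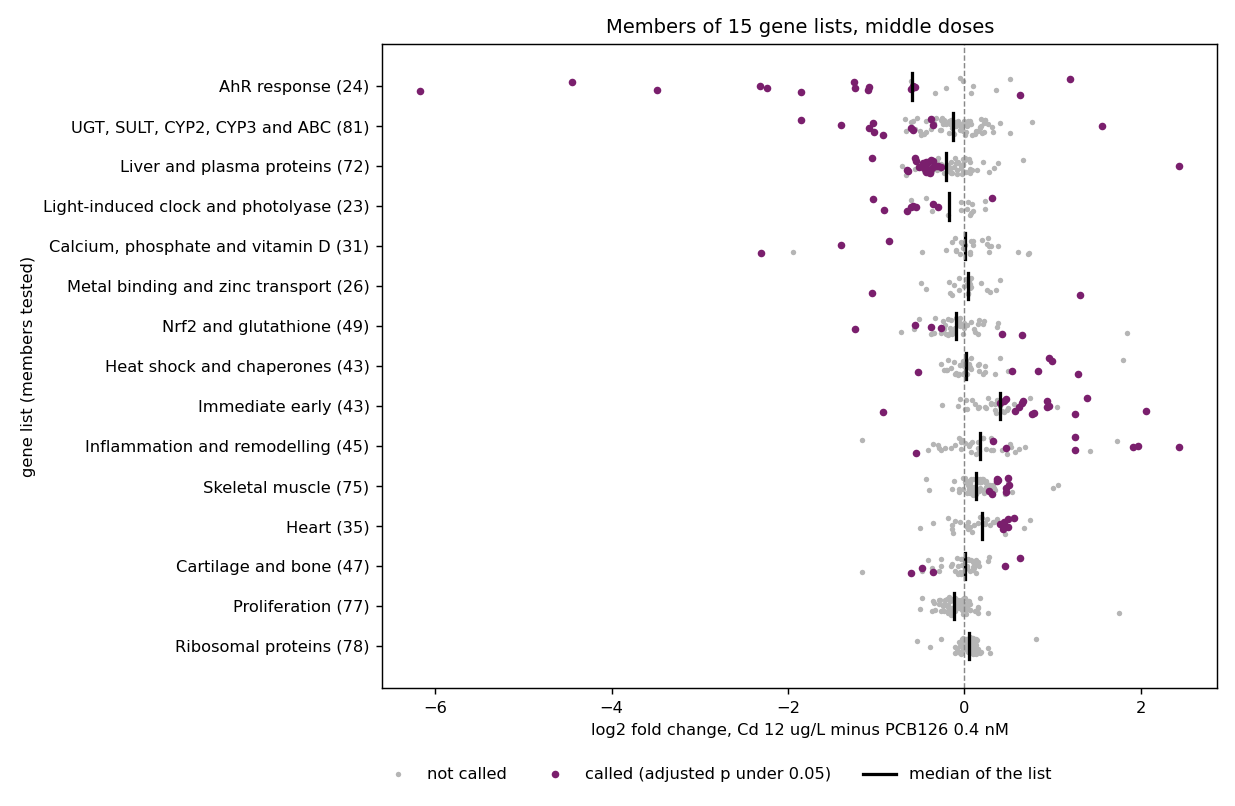
Log2 fold change (Cd 12 ug/L over PCB126 0.4 nM) of each tested member of 15 gene lists, with the number tested in brackets; purple points are called, grey points are not, black bars are list medians and the dashed line is no difference. Most called members lie to the left in the AhR, conjugation, liver and light-induced lists and to the right in the immediate early, muscle and heart lists.

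Genes of the thyroid and sex steroid lists were called at 1 and 2 members. Of 29 tested thyroid genes 1, the glucuronosyltransferase gene ugt1ab, was called (3.45%, near the 2.39% of all genes tested), and the deiodinase genes dio1 (-0.40 ± 0.12, adjusted p = 0.128) and dio2 (0.16 ± 0.23, adjusted p = 0.811) did not pass. The growth factor gene igf2a was lower in Cd 12 larvae (-0.62 ± 0.10, adjusted p = 0.00689). Of 21 tested sex steroid genes 2 were lower (9.52%, against 2.39% of all genes tested). These were tspo (-0.36 ± 0.07) and srd5a2a (-0.47 ± 0.11), and their calls ended in 5 and 7 single omissions. The thyrotropin gene tshba, the estrogen receptor gene esr1 and the vitellogenin gene vtg1 were below the count filter, and cyp19a1b, dio3a and dio3b matched no symbol. Further genes named by the rule for a large difference were lower in Cd 12 than in PCB126 0.4 larvae. They were the bile acid signal gene fgf19 (-1.95 ± 0.39, lost in 4 single omissions), the chemokine receptor gene ccr9a (-1.66 ± 0.25), the musclin gene ostn (-1.34 ± 0.20) and mamdc2b (-1.29 ± 0.14).

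The top doses, in 8 other libraries, gave the same direction for most of these genes. Between Cd 24 ug/L and PCB126 0.8 nM, 1071 of 24054 genes were called (4.45%), 521 higher in Cd 24 (2.17%) and 550 lower (2.29%). Of the 577 middle-dose genes tested there, 536 (92.9%) had the same sign, against 57.5% of all genes tested at both dose pairs, and 304 were called with the same sign, which is 52.7% of the 577 and 28.4% of the 1071. Of the genes higher in Cd 12, 42.9% were called again in the same direction, and of the lower ones 64.0%, a contrast that was not tested. The only gene called in opposite directions was irf1b. At the top doses cyp1a was at -7.22 ± 0.06, zgc:194125 at 5.30 ± 0.16, per2 at -0.65 ± 0.05, hsp70.3 at 2.23 ± 0.17 and stc1l at -5.42 ± 0.31, while irg1l (0.68 ± 0.35, adjusted p = 0.344), mpeg1.2 (0.55 ± 0.17, adjusted p = 0.102) and plekhs1 (0.91 ± 0.31, adjusted p = 0.145) did not pass. Over all 23803 genes tested at both dose pairs, Pearson's r was 0.35 and Spearman's rho 0.22 across genes, which are not independent replicates.

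A direct test of the top-dose difference minus the middle-dose difference, in the 16 libraries of these groups, called 21 of 24902 genes (0.0843%). Among them were 6 genes of the AhR list. The gap of the P450 genes was wider at the top doses, by -1.04 ± 0.12 for cyp1a (adjusted p = 0.00107), -1.01 ± 0.11 for cyp1c1 and -1.43 ± 0.20 for cyp1c2 on the log2 scale. For irf1b the interaction was -2.17 ± 0.29 (adjusted p = 0.00472), with 1.26 ± 0.14 at the middle and -0.92 ± 0.23 at the top doses, where the call ended in 6 of the 8 single omissions. For si:dkey-239b22.1 the difference of 1.82 ± 0.12 at the middle doses contrasted with 0.32 ± 0.19 at the top doses (interaction -1.49 ± 0.25, adjusted p = 0.0298), a call that ended in 7 of the 16 single omissions and with limma, with all 28 libraries in the fit and with the replicate number as a block. The periostin gene postna, for a matrix protein, held 87.0, 78.7, 91.6 and 88.5 CPM in Cd 12 libraries and 86.3, 85.1, 86.8 and 84.2 CPM in PCB126 0.4 libraries, with overlapping groups, and was at 0.82 ± 0.07 at the top doses (interaction 0.82 ± 0.09, adjusted p = 0.000781). The number called was 173 without PCB126 0.8 replicate 4, 13 without PCB126 0.8 replicate 2, and 12 without Cd 12 replicate 2 or 4 or Cd 24 replicate 3.

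**Figure D5:**
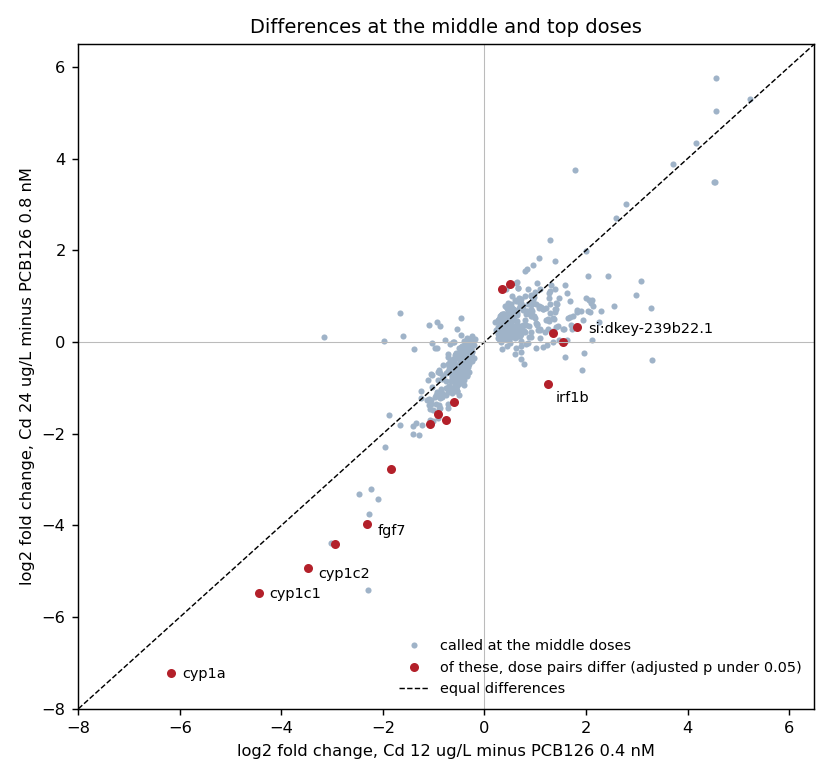
Log2 fold change of each gene called at the middle doses (x axis, Cd 12 ug/L over PCB126 0.4 nM) against its value at the top doses (y axis, Cd 24 ug/L over PCB126 0.8 nM); each point is a gene, red points differ between the dose pairs in the 16-library test and the dashed line marks equal differences. Of 577 genes, 536 share the sign, the P450 family 1 genes lie below the line and irf1b lies in the lower right.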

How the data were processed

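Polyadenylated RNA of whole larvae was sequenced. The authors deposited unnormalised counts for 38318 genes, of which 6417 are loci without an Ensembl identifier. HISAT2 2.0.5, featureCounts 1.5.0-p3 and the build GRCz11 are named in the submitters' processing notes. The deposited TPM values, which the authors made from these counts and gene lengths, cover 27475 genes and served an alternative only. Whether counting used strand is not given in the sources used here. Library totals ranged from 11893345 to 20770004.

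The main test was edgeR 4.0.16 (R 4.3.3) fitted to the 8 libraries alone (filterByExpr, TMM, estimateDisp, glmQLFit, glmQLFTest, two-sided) and called at a Benjamini-Hochberg adjusted p below 0.05 over all genes tested. CPM values were computed from TMM-scaled library sizes. The script was tested on simulated data. Alternatives used DESeq2 1.42.0 and limma 3.58.1. Gene length, another deposited column, described libraries only.

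The members, the 44 gene lists and the tests were chosen with earlier results of these data known. Named genes were the 14 largest differences in each direction among called genes whose groups did not overlap, with a mean of 1 log2 CPM or more and clone names left out, up to 4 called members of each list with the smallest p, and 30 fixed genes. Other named genes were chosen after their values were seen. Lists got no test: their counts and medians are to be read against the share called (2.39%) and the median (0.004) of all genes tested. Member counts at an unadjusted p below 0.05 are to be read against 3448 of 24269 genes. Those by DESeq2 are to be read against 974 of 32795. Every per-sample column was used.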

Additional observations from a re-analysis of the deposited data

Results flagged for a closer look

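In groups of 4, a library was marked where its gap to the nearest other exceeded Dixon's 95% critical share of the group's range. This marked 8 of 94 sets of values, and chance marks about 1 in 20. PCB126 0.4 replicate 1 held 2470 CPM of cyp1a, against 3400 to 3560 in the other 3, and 6.07% of counts in ribosomal protein genes, against 6.27% to 6.29%. Cd 12 replicate 1 held 121 CPM of per2 (others 149 to 154) and Cd 12 replicate 2 held 105 CPM of pygl (others 119 to 121). Cd 12 replicate 3 held 13.8 CPM of ugt1b1 (others 10.4 to 10.9), 114 CPM of myh7 (others 130 to 133) and 7.93% of counts in unannotated loci (others 7.67% to 7.71%). Cd 12 replicate 4 held 261 CPM of zgc:194125 (others 172 to 187).

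The difference between the chemicals itself differed between the dose pairs for 21 genes (interaction test in edgeR, adjusted p below 0.05), given here as the top-dose minus the middle-dose difference on the log2 scale. Among genes lower in Cd at both dose pairs it was -1.04 for cyp1a, -1.01 for cyp1c1, -1.43 for cyp1c2, -0.90 for ugt1b1, -0.69 for tiparp, -1.65 for fgf7, -0.66 for cyp3a65, -0.70 for cyb5a, -0.94 for a clone-named gene of chromosome 14 and -1.45 for FP017215.1. Among genes with a positive middle-dose difference and a smaller or opposite one at the top doses it was -2.17 for irf1b, -1.49 for si:dkey-239b22.1, -1.54 for si:ch211-39f2.3, -1.14 for si:dkey-247k7.2 and -0.68 for an unannotated locus of chromosome 18. It was positive for postna (0.82), pfkma (0.81), thbs4a (0.81), fbp2 (1.06), f13a1b (0.78) and ankrd1b (0.65). Of the 21 calls, 10 stayed in each of the 16 single omissions.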

How the results depend on the processing

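At the middle doses 974 genes were called by DESeq2, 71 past a fold of 1.5, 186 with all 28 libraries in the fit and 993 with 26 libraries. With the replicate number as a block 282 were called. Same-numbered libraries did not deviate together (correlations of -0.1 to -0.01 over 4 pairs, 0 of 4 best with their own number). No pairing by number was thus seen, but 4 correlations cannot show that the samples are unpaired. Single omissions gave 341 to 544 calls. At the top doses 99 were called past a fold of 1.5, 443 with 28 and 1683 with 26 libraries, 698 with the block, and 742 to 1393 in single omissions. For the difference between dose pairs DESeq2 called 159, the fold threshold 0 (397 at an unadjusted p below 0.05), 28 libraries 5 and 26 libraries 65, and single omissions gave 12 to 173. Size factors from DESeq2 in edgeR, both other filters and limma on log2(TPM + 1) stayed within 1.5 times, and so did limma on log2(TPM + 0.1) at the middle doses. Of the 149 called genes followed by name, the middle-dose call ended for 96 past a fold of 1.5 and 67 with 28 libraries. It ended for 31 with the block, 6 with 26 libraries and 6 with limma on log2(TPM + 1). Of the 21 genes that differed between dose pairs, the call ended for 21 past a fold of 1.5, 16 with 28 libraries, 6 with the block and 6 with limma. No gene followed by name changed sign in these alternatives while called. Depth limits hamp and the zgc:109934 entry at 4.56, with 11 and 7 counts in the 4 PCB126 0.4 libraries.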

Other observations

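Of 31 tested p53 target genes, 4 were higher in Cd 12 larvae and 1 lower (16.1% of members, against 2.39% of all genes tested, median 0.059), with the cell cycle inhibitor gene cdkn1a at 0.51 ± 0.10 (adjusted p = 0.0189 in edgeR) and the apoptosis gene pmaip1 at 1.04 ± 0.22 (adjusted p = 0.0343). The call of cdkn1a ended in 3 and that of pmaip1 in 6 single omissions, and the count of higher members was 1 without Cd 12 replicate 1 or PCB126 0.4 replicate 3 and 2 without Cd 12 replicate 2 or 4 or PCB126 0.4 replicate 1 or 2. Of 46 tested genes of endoplasmic reticulum stress and the amino acid response 2 were called (4.35%), both higher, the stress transcription factor gene ddit3 (0.38 ± 0.06) and the amino acid transporter subunit gene slc3a2b (0.39 ± 0.05). Of 47 tested hypoxia genes 3 were higher and 1 lower (8.51%), among them ddit4 and egln1a.

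Of 45 tested intestinal genes 5 were lower in Cd 12 larvae and 1, muc13a, was higher (13.3% of members, against 2.39% of all genes tested, median 0.025). The count of lower members was 3 without Cd 12 replicate 4, 2 with the replicate number as a block and 1 with all 28 libraries in the fit. Over all genes these settings called 341 of 24385, 282 of 24269 and 186 of 25393. The lower ones included the chitinase gene chia.6 (-0.83 ± 0.14) and the apolipoprotein gene apoa4b.1 (-0.27 ± 0.05). Of 70 tested nuclear genes of the respiratory chain 2 were lower (2.86%, near the share of all genes), cox6b1 (-0.37 ± 0.06) and sdha (-0.19 ± 0.04, lost in 7 single omissions). Of 22 tested pituitary hormone and growth axis genes igfbp1a was higher and igf2a lower (9.09%). An unannotated locus on chromosome 1, singled out after its values were seen, held 7.77, 6, 8.53 and 9.08 CPM in Cd 12 libraries and 0.139, 0.309, 0.273 and 0.591 CPM in PCB126 0.4 libraries (4.52 ± 0.30, adjusted p = 2.16e-05).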
